A study of Mus musculus with 36 samples.

Results

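White adipose tissue of 5-month-old male C57Bl/6 mice was compared between animals with 1 inactivated copy of the Myc gene (Myc+/-) and wild type animals. The Myc+/- group was 1 RNA pool of 5 mice and the wild type group 1 RNA pool of 6 mice, each hybridized to 3 technical arrays, so 6 of the 36 arrays of the series belong to this comparison. The other 30 arrays hold liver, skeletal muscle and 24-month adipose RNA of the same design, and the same mice gave all 3 tissues. The 24-month pools held 8 Myc+/- and 5 wild type mice. The mice were fed chow freely in a pathogen-free facility with a light-dark cycle, and the labels give neither the fat depot nor the hour of sacrifice. They describe 2 homogenization methods and 2 labelling kits and assign neither to samples. All probe sets with 1 gene symbol were taken, and the 6 arrays were chosen by their titles, with no measured value used.

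Myc is a transcription factor that pairs with Max, binds E-box sequences and raises transcription of genes for ribosome production, nucleotide synthesis and cell growth. The series title states that mice with less Myc lived longer and stayed healthier. White adipose tissue is built of lipid-storing adipocytes, with progenitors, endothelial cells, mesothelium and resident macrophages between them, and its macrophages are known to increase in number and lipid content with obesity and age.

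Values are log2 expression values per probe set, so a difference of 1 is a 2-fold change. The 6 arrays had medians of 7.05 to 7.07. Across genes, an array correlated on average at 0.9957 to 0.9966 with the others of its pool and at 0.9930 to 0.9938 with those of the other pool. The means of the Myc+/- and wild type pools, in which array error is smaller, correlated at 0.9959. The median SD between arrays of a pool was 0.080 in the Myc+/- pool and 0.079 in the wild type pool. A limma model over the 36 arrays gave the difference between the pools, its standard error (SE) and a Benjamini-Hochberg adjusted p over 13073 probe sets. With 1 pool a genotype, these p-values set 1 RNA mixture against another, and the only error in them is that between arrays. They cannot show a difference between the genotypes, and a difference carried by 1 mouse of a pool cannot be told apart from one shared by all. In bulk RNA, fewer cells of a type and less RNA per cell cannot be told apart either.

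A gene was called higher or lower, and is said to have risen or fallen, when its adjusted p was under 0.05 and its change at least 1.5-fold. Of 11893 genes, 137 were called higher in the Myc+/- pool (1.15%) and 29 lower (0.244%), and of the probe sets 146 (1.12%) and 33 (0.252%). Of the 137, 8 passed the level filter (a mean of 6.992 over the 12 adipose arrays) only through the Myc+/- 5-month pool and so had to differ, which leaves 129. Passage only through the wild type 5-month pool was not counted for the 29 called lower, so this limit is unknown for them. At least 2-fold, 43 were higher and 4 lower. Without a minimum fold, 1033 probe sets passed as higher and 527 as lower, and over all genes the median difference was 0.01, with 53% reading higher. Of the 137 genes called higher, 65 stood in at least 1 of the 48 gene lists described here, and of the 29 called lower, 11 did. The lists held 795 tested entries, where a gene in several lists counts in each, beside the 11893 genes tested. The 15 largest called changes in each direction were picked among genes whose 3 Myc+/- arrays did not overlap with the 3 wild type arrays, a state that 18.3% of all genes had in the upward and 11.7% in the downward direction.

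**Figure D1:**
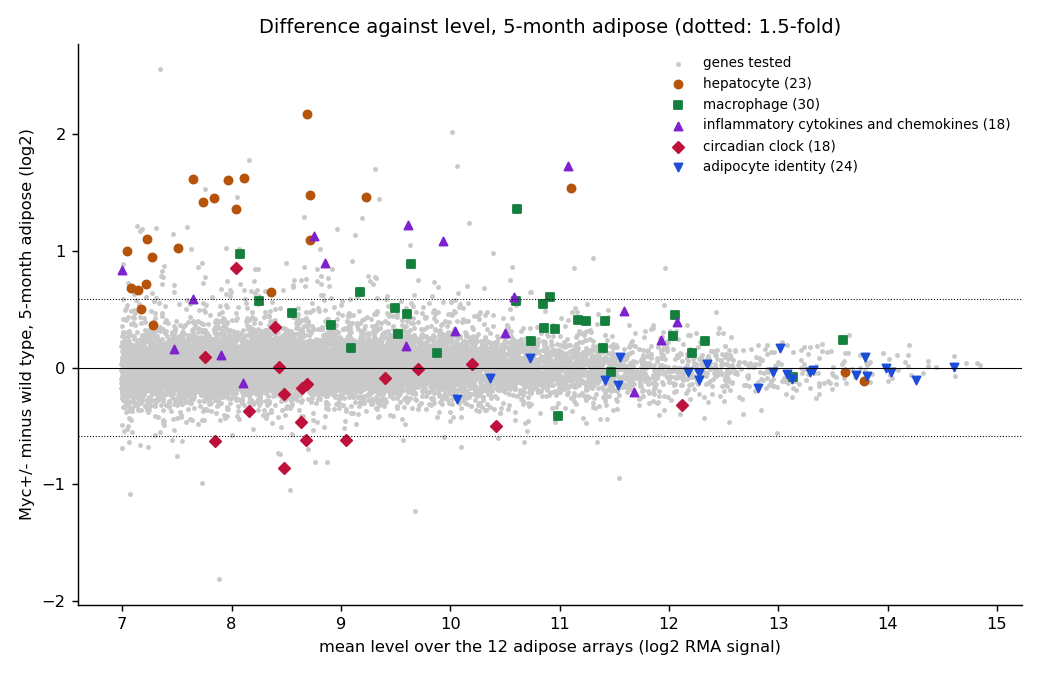
Difference between the Myc+/- and wild type pools (log2, vertical axis) against the mean level over the 12 adipose arrays (log2, horizontal axis), 1 point a gene, with members of 5 gene lists marked and the number of members tested in brackets. Hepatocyte genes, chemokines and macrophage genes lie mostly above 0, while adipocyte genes stay between -0.27 and 0.16.

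**Figure D2:**
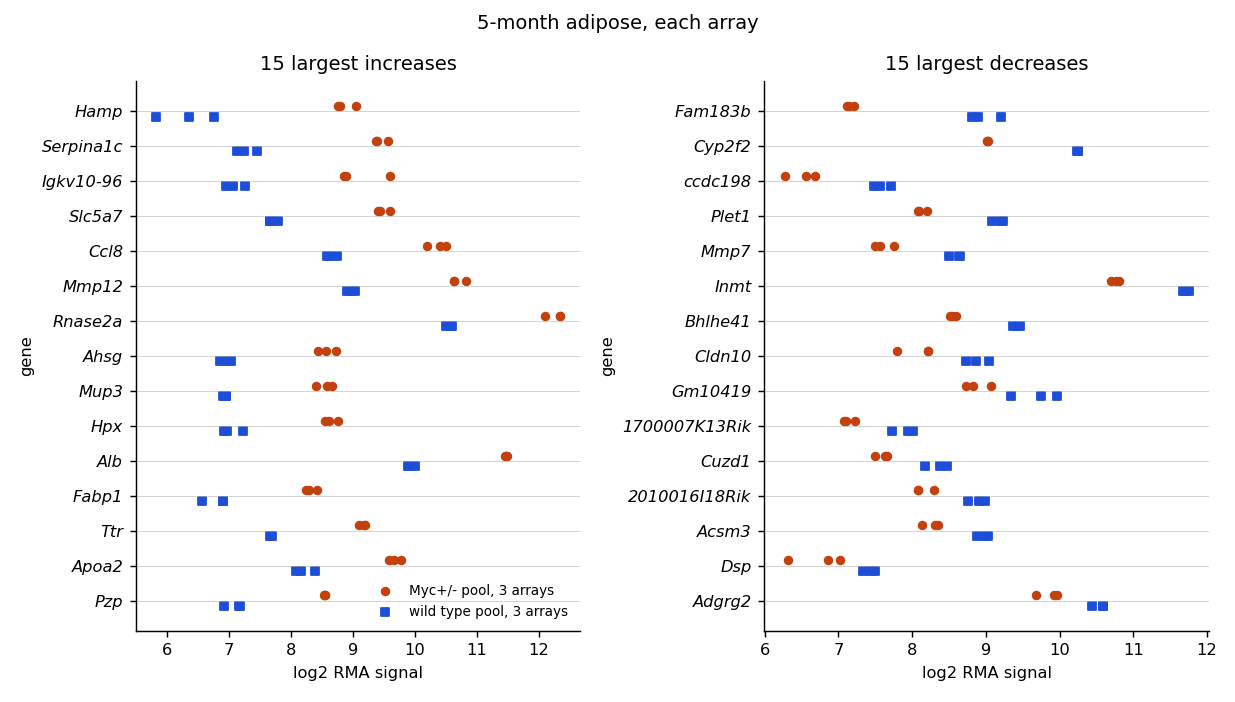
Log2 signal of each array for the 15 genes with the largest called increases (left panel) and decreases (right panel), with the 3 arrays of the Myc+/- pool as circles above the 3 arrays of the wild type pool as squares. Genes were picked among those whose arrays do not overlap between the pools, and Hamp at the top of the increases has the most spread wild type arrays, from 5.82 to 6.75.

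Myc itself read 9.27, 9.54 and 9.33 on the Myc+/- arrays and 9.66, 9.88 and 9.56 on the wild type arrays. The arrays did not overlap, and the level in the Myc+/- pool was 0.80 of the wild type level, a difference of -0.32 ± 0.09 (SE, adjusted p = 0.0177), smaller than 1.5-fold. The adjusted p was 0.114 without Myc+/- array 1, 0.0698 without Myc+/- array 3 and 0.158 without wild type array 2. Between the 24-month adipose pools the difference was -0.81 ± 0.09, and the difference between the ages was 0.49 ± 0.13 (adjusted p = 0.0132), which is under 1.5-fold. In 5-month liver and muscle the differences were -0.60 and -0.48. Whether the probes of Myc lie inside the inactivated part of the gene was not given. Pvt1, the noncoding RNA gene next to Myc, rose. It read 7.47, 7.81 and 7.66 on the Myc+/- arrays and 7.07, 6.81 and 6.91 on the wild type arrays, a difference of 0.72 ± 0.12 (adjusted p = 5.59e-05). Pvt1 differed by 0.42 ± 0.12 in 24-month adipose tissue, by 0.69 in 5-month liver, where it was called higher, and by 0.31 in 5-month muscle. In the same model, the Pvt1 difference in 5-month adipose tissue was not called larger or smaller than any of these.

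Of 17 genes tested in the list of Myc partners and relatives, Pvt1 was the only one called. Mycl, a Myc paralogue, differed by -0.37 ± 0.10, and Max, the obligate partner of Myc, by 0.10 ± 0.09. Of 43 genes listed as Myc targets in ribosome biogenesis and metabolism, 26 read higher, 0 were called and the median was 0.06. Among them, Rrs1, a ribosome assembly factor, differed by -0.44 ± 0.17 and Mthfd2, an enzyme of mitochondrial folate metabolism, by 0.43 ± 0.09. Of 47 cytosolic ribosomal protein genes 6 read higher, with a median of -0.06 and 0 called, and 13 read higher with the adipose arrays quantile-normalized again and 16 without wild type array 1. Their medians were -0.16 in 24-month adipose tissue, -0.15 in 5-month liver and -0.02 in 5-month muscle. All 17 cell cycle genes tested, such as the cyclin Ccna2 and the thymidine kinase Tk1, read higher by 0.04 to 0.25, and 0 were called. At 24 months 1 of the 17 read higher, with a median of -0.26, and the 5-month medians were 0.08 in liver and 0.07 in muscle. Of 28 genes of insulin, IGF and mTOR signalling, 14 read higher and 0 were called.

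The tissue label was checked with 24 adipocyte genes. All were measured above the level filter, 0 were called, and the differences ran from -0.27 to 0.16 with a median of -0.04. Fabp4, the fatty acid carrier of adipocytes, read 14.25, 14.29 and 14.20 in the Myc+/- pool and 14.37, 14.31 and 14.36 in the wild type pool. Adiponectin (Adipoq) averaged 13.78 in the Myc+/- pool and 13.85 in the wild type pool. Leptin (Lep), the adipocyte hormone that reports fat stores, averaged 13.50 in the Myc+/- pool and 13.34 in the wild type pool. No adipocyte gene reached 1.5-fold, and their summed linear signal was 234754 to 237153 on the Myc+/- arrays and 235747 to 245421 on the wild type arrays. Among 13 genes of brown and beige adipocytes tested, 5 read higher and 8 lower, with a median of -0.01. Of the 13, 1 gene, not among those called, passed the level filter only through the Myc+/- 5-month pool. Kcnk3, a potassium channel, rose by 0.72 ± 0.09 and Otop1, a proton channel, by 0.60 ± 0.10, and they were the only 2 called. Ppargc1a, the coactivator of mitochondrial biogenesis, differed by -0.47 ± 0.07, and Prdm16, a determinant of brown fat, by -0.01 ± 0.09.

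Genes of proteins that the liver makes for secretion were among the largest increases. Of 31 hepatocyte genes matched to the array, 29 read higher in the Myc+/- pool, with a median of 0.94. Of these 31, 23 passed the level filter, 2 of them (Apoh and Tat) only through the Myc+/- pool. Of the 23, 19 were called higher, Apoh and Tat among them, and 0 lower. Hamp, the gene of the iron hormone hepcidin, is no member of the list. It read 8.76, 8.78 and 9.04 on the Myc+/- arrays and 5.82, 6.35 and 6.75 on the wild type arrays, a difference of 2.56 ± 0.24. Its mean over the other 3 adipose pools was 6.84, under the level filter of 6.992, so it was tested only because the Myc+/- pool was high, and its difference is a description with no test. The wild type arrays were more spread than the Myc+/- arrays but stayed below all of them. Its level in the 5-month liver pools was 13.67 in Myc+/- and 13.85 in wild type.

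Serpina1c, a form of alpha-1 antitrypsin, read 9.36, 9.57 and 9.39 in the Myc+/- pool and 7.45, 7.12 and 7.23 in the wild type pool, a rise of 2.17 ± 0.17 (adjusted p = 5.13e-12). It belongs to a family of near-identical genes, as do Serpina1d and Mup3, so the probe sets may read several copies. Albumin (Alb), the main plasma protein, averaged 11.47 ± 0.01 in the Myc+/- pool and 9.93 ± 0.06 in the wild type pool (SD over 3 arrays), a rise of 1.54 ± 0.13 (SE). Its level was 14.43 in the Myc+/- liver pool and 14.76 in the wild type liver pool, so both adipose pools stood far below liver. Transthyretin (Ttr), the thyroxine carrier, rose by 1.48 ± 0.13. The plasma glycoprotein Ahsg rose by 1.63 ± 0.10 and the heme binder Hpx by 1.61 ± 0.13. The fibrinogen chains Fgg and Fgb rose by 1.45 ± 0.14 and 1.36 ± 0.09. Among the apolipoproteins, Apoa2 rose by 1.46 ± 0.14, Apob by 1.10 ± 0.08 and Apoa1 by 1.09 ± 0.11. The clotting and fibrinolysis genes Kng1, Plg and F2 rose by 1.42 ± 0.10, 0.95 ± 0.10 and 0.72 ± 0.11. Fabp1, the liver fatty acid binding protein, and Pzp, a plasma protease inhibitor, which stand in no list, rose by 1.53 ± 0.12 and 1.46 ± 0.11.

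The 2 hepatocyte genes that did not read higher, Trf and Cyp2e1, had high levels in both adipose pools. Transferrin (Trf) differed by -0.04 ± 0.09 and Cyp2e1 by -0.11 ± 0.10, at levels above 13. The summed linear signal of the 23 genes was 36198 to 37046 on the Myc+/- arrays and 31961 to 32595 on the wild type arrays. At their levels Trf and Cyp2e1 weigh heavily in this sum, so it says little about the size of the other changes.

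In muscle of the same mice all 23 hepatocyte genes read lower in the Myc+/- than in the wild type pool at 5 months, with a median of -1.15, against 1.09 in adipose tissue. Albumin averaged 9.31 in the Myc+/- muscle pool and 10.94 in the wild type muscle pool, and Hamp 6.51 in the Myc+/- muscle pool and 8.38 in the wild type muscle pool. In the 5-month liver pools themselves the median was -0.17, and in 24-month adipose tissue 0.14. The difference in 5-month adipose tissue exceeded that in muscle for 21 of the 23, that in liver for 19 and that in 24-month adipose tissue for 17, by the interaction terms of the same model with the same thresholds. Over all genes, 1.47%, 1.56% and 2.01% were called so. Each count of hepatocyte genes includes Apoh and Tat, which passed the level filter only through the Myc+/- 5-month pool. For 21 of the 23 the wild type 5-month pool was the lowest of the 4 adipose pools, and for 14 the Myc+/- 5-month pool was the highest.

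A group of 48 genes at least 5 log2 units higher in liver than in adipose tissue of the 24-month wild type pools was formed after the values were seen. Of these, 44 read higher in the 5-month Myc+/- adipose pool and 32 were called higher (66.7%, against 1.15% of all genes), with 0 lower. Of the 32, 4 (Hamp, Apoh, Tat and Serpinc1) passed the level filter only through the Myc+/- pool, which leaves 28. In 5-month muscle 45 read lower and 31 were called lower, where 0.437% of all genes were called lower and 0.0252% higher. Without these 48 genes, 105 genes were called higher and 29 lower. The level of these liver transcripts in the adipose pools thus moved with the comparison, and the part of liver RNA in the increases was not tested.

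Of 18 inflammatory cytokines and chemokines tested, 16 read higher, 8 rose, 0 fell and the median was 0.44. Over all 29 members matched, 26 read higher. Ccl8, a ligand that attracts monocytes and other leukocytes, read 10.40, 10.51 and 10.20 in the Myc+/- pool and 8.73, 8.57 and 8.62 in the wild type pool, a 3.32-fold rise (1.73 ± 0.11, adjusted p = 1.93e-14). Ccl7 rose by 1.22 ± 0.13. Ccl2, the chief monocyte attractant of adipose tissue, read 10.46, 10.57 and 10.49 in the Myc+/- pool and 9.36, 9.44 and 9.45 in the wild type pool, a rise of 1.09 ± 0.10. Ccl3 rose by 1.13 ± 0.10, Cxcl10, an interferon-induced ligand, by 0.90 ± 0.10 and Ccl12 by 0.84 ± 0.14. The B cell attractant Cxcl13 and the interleukin 1 receptor antagonist Il1rn rose by 0.60 ± 0.09 and 0.59 ± 0.09.

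Receptors and feedback genes also read higher. Of 18 cytokine and pattern receptors tested, 17 read higher and 3 rose. They were Clec4d, a C-type lectin of myeloid cells, by 1.21 ± 0.16, the endosomal RNA sensor Tlr13 by 0.74 ± 0.11 and the interleukin 4 receptor chain Il4ra by 0.69 ± 0.06. Ccr2, the receptor of Ccl2, differed by 0.32 ± 0.10, under 1.5-fold. Of 19 NF-kB and cytokine feedback genes 17 read higher and 3 rose, namely Tnfaip2 by 1.02 ± 0.06, Bcl3, a modulator of NF-kB, by 0.92 ± 0.08 and Socs3, an inhibitor of JAK-STAT signalling, by 0.76 ± 0.10. Of 23 interferon response genes only Zbp1, a nucleic acid sensor, was called, with a rise of 0.59 ± 0.11. Of 15 acute phase genes tested 12 read higher and 4 were called, namely Hpx, Saa3, Itih4 and Orm2, with a median of 0.19. Hpx, Itih4 and Orm2 also belong to the group of 48 genes high in liver given above, while Saa3 does not. Of the 15, 1 gene, not among those called, passed the level filter only through the Myc+/- 5-month pool. Saa3, which adipose tissue and macrophages make, rose by 1.24 ± 0.12 here, and differed by 2.21 between the 5-month liver pools and by -0.73 ± 0.12 at 24 months, where it was called lower. Orm2, an acid glycoprotein, rose by 0.65 ± 0.13 and differed by 2.62 in liver. For 6 of the 15 the adipose difference was called lower than that in liver, and for 2 higher.

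Of 30 macrophage genes tested, 27 read higher and the median was 0.38. By adjusted p alone 23 passed as higher and 1, Lyz1, as lower, and 5 reached 1.5-fold. Among all 13073 probe sets tested, 1033 passed as higher and 527 as lower by adjusted p alone. Gpnmb, a glycoprotein of lipid-laden macrophages, read 10.42, 10.42 and 10.48 in the Myc+/- pool and 9.13, 9.04 and 9.07 in the wild type pool, a rise of 1.36 ± 0.10 (adjusted p = 3.46e-12). Itgax, the integrin CD11c, rose by 0.97 ± 0.11, Ms4a6d by 0.89 ± 0.07, the lipid receptor Trem2 by 0.65 ± 0.09 and the lysosomal protease Ctss by 0.60 ± 0.08. Without Myc+/- array 1 the count of members called was 8. General macrophage markers differed by less. Cd68 differed by 0.45 ± 0.05, Adgre1, which encodes F4/80, by 0.34 ± 0.07, Csf1r by 0.17 ± 0.06 and Retnla, a marker of alternatively activated macrophages, by -0.08 ± 0.09.

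At 24 months these genes stood differently. Of the same 30 macrophage genes 9 read higher in the Myc+/- pool of that age, 6 were called lower and 1 higher, and the median was -0.18. Over all genes 0.689% were called lower and 0.597% higher at that age. Gpnmb averaged 11.13 in the 24-month Myc+/- pool and 11.79 in the 24-month wild type pool, and Trem2 9.41 in the Myc+/- and 10.35 in the wild type pool. The change in difference between the ages was called for 16 of the 30, with 14 larger at 5 months, and it was 2.02 ± 0.15 for Gpnmb (adjusted p = 1.86e-12). For 27 of the 30 genes the wild type 5-month pool was the lowest of the 4 adipose pools, and for 29 the Myc+/- 5-month pool lay between others. The medians in 5-month liver and muscle were 0.07 and -0.02. The summed linear signal of the 30 genes at 5 months was 61389 to 62037 on the Myc+/- arrays and 52243 to 53498 on the wild type arrays, and its part in the chemokine increases was not tested.

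Among matrix genes, Mmp12, the elastase of macrophages, read 10.83, 10.63 and 10.63 in the Myc+/- pool and 8.90, 9.04 and 8.96 in the wild type pool, a 3.31-fold rise (1.73 ± 0.12). Timp1, a tissue inhibitor of metalloproteases, rose by 1.29 ± 0.12. At 24 months both were called lower in the Myc+/- pool. There Mmp12 averaged 9.88 in the Myc+/- pool and 10.71 in the wild type pool, and Timp1 8.38 in the Myc+/- pool and 9.38 in the wild type pool. Of 36 collagen and matrix genes tested, 28 read higher with a median of 0.19, and these were the only 2 called. Col6a3, a collagen VI chain of fat, differed by 0.55 ± 0.09. Col1a1, the main chain of type I collagen, differed by 0.36 ± 0.08. Outside the lists Mrc2, a collagen uptake receptor, rose by 1.18 ± 0.10. It was named, as were the next genes, after its values were seen.

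Other called genes stood in no list. Atp6v0d2, a subunit of the lysosomal proton pump, rose by 1.13 ± 0.11 and Rgs1, a regulator of G protein signalling in leukocytes, by 1.14 ± 0.15. The integrin chain Itgb2 rose by 0.68 ± 0.07, the hyaluronan receptor Cd44 by 0.69 ± 0.07, and the protease Adam8 by 0.75 ± 0.09. In the 24-month pools Atp6v0d2 differed by -1.34 ± 0.11 and Rgs1 by -1.58 ± 0.15. Of the neutrophil list, 6 genes were tested and S100a8 and S100a9, calcium-binding alarmins, rose by 0.87 ± 0.10 and 0.74 ± 0.12, while Elane, the elastase of neutrophil granules, differed by -0.12 ± 0.11. Rnase2a, of a ribonuclease family first known from eosinophils, read 12.35, 12.35 and 12.10 in the Myc+/- pool and 10.50, 10.60 and 10.57 in the wild type pool, a rise of 1.71 ± 0.19. This family has many near-identical members. The mast cell and eosinophil list had 6 genes tested and 0 called. Of 9 T and NK cell genes only Il7r, the interleukin 7 receptor, rose, by 0.67 ± 0.10, and of 23 immediate early genes only Atf3, a stress-induced transcription factor, by 0.75 ± 0.12.

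Of 12 genes of B and plasma cells tested, 4 read higher and 8 lower, 3 were called higher (Igha, Ighm and Jchain) and the median was -0.08. Igkv10-96, a kappa light chain variable segment that stands in no list, read 8.85, 9.60 and 8.88 in the Myc+/- pool and 7.05, 6.95 and 7.25 in the wild type pool, a rise of 2.02 ± 0.17. Igha, the heavy chain of IgA, rose by 1.28 ± 0.11 and Jchain, which joins IgA and IgM units, by 0.64 ± 0.13. The 3 probe sets of Ighm disagreed in size, with differences of 2.24 ± 0.21, 0.77 ± 0.11 and 0.29 ± 0.08, of which the last was not called. The B cell receptor partners Cd79a and Cd79b differed by -0.44 ± 0.16 and -0.39 ± 0.09, and Ms4a1, which encodes CD20, by -0.34 ± 0.13. Immunoglobulin genes have many near-identical copies, so which of them a probe set read is uncertain. At 24 months Igha averaged 11.49 in the Myc+/- pool and 10.35 in the wild type pool, above both 5-month pools.

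**Figure D3:**
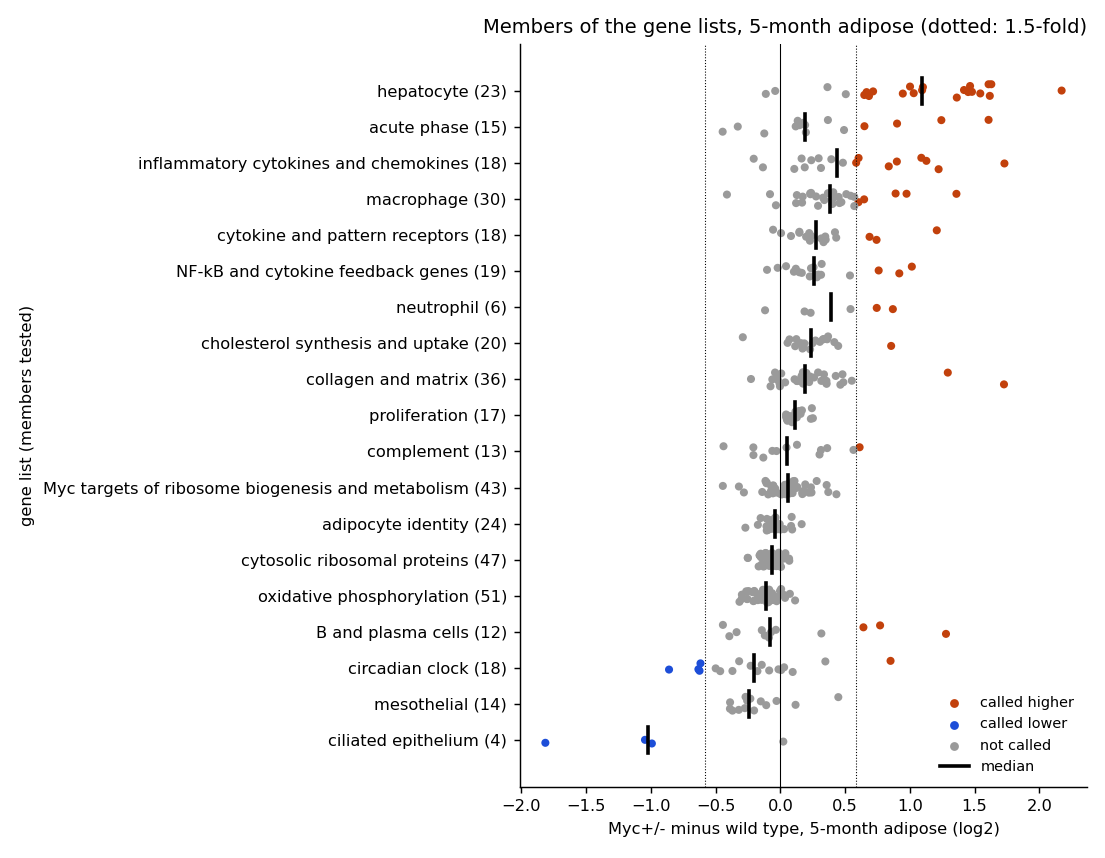
Difference between the Myc+/- and wild type pools (log2, horizontal axis) for each tested member of 19 gene lists, 1 row a list with the number tested in brackets and the median as a bar. The medians run from 1.09 for hepatocyte genes to -1.02 for the 4 ciliated epithelium genes, and adipocyte, ribosomal protein and oxidative phosphorylation genes hold no called member.

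Genes of the circadian clock were among the decreases. In the circadian clock the activators CLOCK and BMAL1 (Arntl) bind E-boxes of genes such as Per, Cry, Dbp, Bhlhe41, Ciart and Nr1d1, whose products feed back on them, and Dbp, Tef and Hlf act through D-boxes against the repressor Nfil3. Of 18 clock genes tested 13 read lower, 4 fell, 1 rose and the median was -0.20. With arrays centred on the median, 3 read higher, against 5 here. The repressor Bhlhe41 read 8.52, 8.55 and 8.59 in the Myc+/- pool and 9.36, 9.46 and 9.42 in the wild type pool, a difference of -0.86 ± 0.11 (adjusted p = 9.76e-07). The repressor Ciart fell by 0.63 ± 0.14 on the log2 scale, the activator Dbp by 0.62 ± 0.09 and Per3 by 0.62 ± 0.09. Nfil3 read 8.12, 8.27 and 8.04 in the Myc+/- pool and 7.29, 7.34 and 7.24 in the wild type pool, a rise of 0.85 ± 0.07.

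Other members moved by less than 1.5-fold. Nr1d2 and Nr1d1, the REV-ERB repressors of Arntl, differed by -0.50 ± 0.06 and -0.32 ± 0.04, Tef by -0.46 ± 0.07, Hlf by -0.37 ± 0.07 and Arntl itself by 0.35 ± 0.10. Clock differed by 0.03 ± 0.05, Per1 by -0.01 ± 0.07 and Per2 by -0.14 ± 0.07. For 13 of the 18 genes the wild type 5-month pool was the highest of the 4 adipose pools. The share of all genes in this position was not counted. Most of the list read lower in the Myc+/- pool, which favours the position, so the count is no separate evidence. In 5-month liver and muscle the medians were -0.09 and -0.02, with Dbp at -0.39 and -0.19 and Per3 at -0.39 and -0.36. The hour at which each mouse was killed was not given, so hour and genotype cannot be told apart here.

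The 250 bases before the start of the 4 clock genes that fell are shown because they were searched for motifs that clock factors and Myc are known to bind. They are RefSeq sequences of assembly GRCm38.p6, printed on the gene's strand with matches in capitals. Matches were sought on both strands to the E-box CACGTG, which CLOCK-BMAL1 and Myc-Max share and which reads the same on both strands, and to the D-box form TTATGTAA (TTACATAA on the other strand), which do not overlap each other. Ciart (chr3:95882229-95882478, minus strand) holds 3 E-boxes, Bhlhe41 (chr6:145865421-145865670, minus strand) 1, and Per3 (chr4:151044666-151044915, minus strand) 2 D-boxes, while Dbp (chr7:45704997-45705246, plus strand) holds neither in this window.
Ciart: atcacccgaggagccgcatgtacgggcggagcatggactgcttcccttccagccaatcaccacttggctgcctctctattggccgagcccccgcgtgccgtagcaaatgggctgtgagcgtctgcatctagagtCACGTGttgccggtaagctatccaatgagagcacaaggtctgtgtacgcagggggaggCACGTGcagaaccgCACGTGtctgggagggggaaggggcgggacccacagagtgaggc
Bhlhe41: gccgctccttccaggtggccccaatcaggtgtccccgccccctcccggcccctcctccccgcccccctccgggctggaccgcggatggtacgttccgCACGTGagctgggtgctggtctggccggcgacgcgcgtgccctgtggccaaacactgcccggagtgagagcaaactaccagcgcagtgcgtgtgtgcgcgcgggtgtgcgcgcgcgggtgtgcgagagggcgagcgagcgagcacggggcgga
Per3: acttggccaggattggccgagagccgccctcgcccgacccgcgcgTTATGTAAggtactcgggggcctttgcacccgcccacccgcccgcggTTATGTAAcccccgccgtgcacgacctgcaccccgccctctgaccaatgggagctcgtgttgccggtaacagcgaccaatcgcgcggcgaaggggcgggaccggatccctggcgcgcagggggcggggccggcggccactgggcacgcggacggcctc
Dbp: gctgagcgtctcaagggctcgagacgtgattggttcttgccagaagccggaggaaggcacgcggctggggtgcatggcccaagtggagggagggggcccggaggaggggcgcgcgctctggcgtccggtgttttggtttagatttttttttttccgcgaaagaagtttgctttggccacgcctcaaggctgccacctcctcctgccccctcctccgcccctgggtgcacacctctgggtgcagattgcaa
Of 32851 RefSeq promoter windows of this length, 6.02% hold the E-box and 0.819% the D-box form. Of 16 clock genes with a RefSeq window, 5 hold the E-box and 1 the D-box form, and the E-box also lies in windows of Cry1, Per1 and Tef, which were not called. These matches describe the sequence and show no binding.

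Cholesterol synthesis genes read higher together by small amounts. Of 20 tested, 19 read higher with a median of 0.24, 10 passed as higher by adjusted p alone and 1 reached 1.5-fold. Among all 13073 probe sets tested, 1033 passed as higher by adjusted p alone. Insig1, the sterol sensor that retains SREBP in the endoplasmic reticulum, read 12.58, 12.65 and 12.59 in the Myc+/- pool and 11.78, 11.78 and 11.70 in the wild type pool, a rise of 0.86 ± 0.06 (adjusted p = 7.05e-13). Farnesyl diphosphate synthase (Fdps) differed by 0.45 ± 0.08 and Hmgcs1, the enzyme before HMG-CoA reductase, by 0.36 ± 0.07. Fdft1, squalene synthase, was the exception at -0.29 ± 0.08. For 17 of the 20 the Myc+/- 5-month pool was the highest of the 4 adipose pools, and between the 24-month pools the median was 0.21. Of 28 fatty acid and triglyceride synthesis genes 12 read higher, and Mogat2, an acyltransferase of triglyceride synthesis, rose by 1.01 ± 0.14. It differed by 1.15 ± 0.14 at 24 months.

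Genes of the respiratory chain read lower together by less than 1.5-fold. Of 51 tested 45 read lower with a median of -0.11, 12 passed as lower by adjusted p alone and 0 were called. Among all 13073 probe sets tested, 527 passed as lower by adjusted p alone. Ndufb8 and Ndufb9, subunits of complex I, differed by -0.32 ± 0.06 and -0.30 ± 0.06. The highest member differed by 0.11. Of 27 genes of lipolysis and fatty acid oxidation 12 read higher and 0 were called.

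Growth and progenitor genes gave single large changes. Mest, an imprinted gene linked to adipocyte size in mice, read 12.29, 12.39 and 12.31 in the Myc+/- pool and 11.40, 11.37 and 11.41 in the wild type pool, a rise of 0.94 ± 0.08. Peg10, an imprinted gene of retrotransposon origin, rose by 0.86 ± 0.08 and Sfrp1, a secreted Wnt antagonist, by 0.76 ± 0.10. At 24 months Mest differed by 0.52 ± 0.08, Peg10 by 1.04 ± 0.08 and Sfrp1 by -0.27 ± 0.10. They were the 3 called of 25 genes of progenitors and adipogenesis. Slc5a7, a choline transporter of nerve endings, read 9.44, 9.60 and 9.40 in the Myc+/- pool and 7.65, 7.66 and 7.79 in the wild type pool, a rise of 1.78 ± 0.11 (adjusted p = 3.93e-14), and at 24 months it averaged 7.85 in the Myc+/- pool and 7.61 in the wild type pool. Of 3 genes tested in the nerve and Schwann cell list 0 were called.

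The decreases were fewer and included epithelial genes. Fam183b, a gene of ciliated cells, read 7.14, 7.22 and 7.11 in the Myc+/- pool and 8.81, 9.21 and 8.90 in the wild type pool, a difference of -1.82 ± 0.12 (adjusted p = 1.24e-13), where the Myc+/- level was 0.28 of the wild type level. Plet1 and the epithelial protease Mmp7 differed by -1.05 ± 0.11 and -0.99 ± 0.15, and the fourth tested gene of the list, Tppp3, by 0.02 ± 0.12. At 24 months Fam183b, Plet1 and Mmp7 differed by -2.40 ± 0.12, -2.31 ± 0.11 and -2.95 ± 0.15, and the interaction with age was called for all 3. The list had 17 genes on the array, of which 2 read higher and 4 passed the level filter, and its summed linear signal was 1067 to 1126 on the Myc+/- arrays and 1860 to 2040 on the wild type arrays. Adgrg2, a receptor of epididymal ducts, fell by 0.68 ± 0.09 on the log2 scale, and Sult1e1, the estrogen sulfotransferase, by 0.64 ± 0.16. Of 25 epididymis genes matched 15 read higher, with a median of 0.11. Only 3 of them passed the filter, of which 1 read higher, by 0.35, so most of its defining genes were near background in these pools. Dsp, a desmosome protein, differed by -0.69 ± 0.12, and by -0.48 without Myc+/- array 3, which is under 1.5-fold. It was the only gene called of 5 tested in the keratinocyte list, of which 3 read higher, with a median of 0.09.

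Of 14 mesothelial genes 12 read lower, among them Msln at -0.32 ± 0.10 and Krt19 at -0.39 ± 0.12, 0 were called and the median was -0.24. Wt1, a mesothelial transcription factor, differed by 0.45 ± 0.11. The summed linear signal of the list was 19814 to 20092 on the Myc+/- arrays and 21935 to 22438 on the wild type arrays. How far these cells moved with the epithelial decreases was not tested.

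Several enzymes were also lower. Cyp2f2, a cytochrome P450, read 9.02, 9.03 and 9.02 in the Myc+/- pool and 10.25, 10.24 and 10.25 in the wild type pool, a difference of -1.23 ± 0.10 (adjusted p = 1e-11). Inmt, an amine N-methyltransferase, read 10.77, 10.81 and 10.69 in the Myc+/- pool and 11.75, 11.69 and 11.67 in the wild type pool, a difference of -0.95 ± 0.06. Neither stands in a list. The glutathione transferases Gsta4, Gstm5 and Gstm7 fell by 0.59 ± 0.08, 0.60 ± 0.07 and 0.62 ± 0.08 on the log2 scale. Acsm3, a medium-chain acyl-CoA synthetase, fell by 0.70 ± 0.08. Hmox1, the heme oxygenase of the oxidative stress list, rose by 0.65 ± 0.07. The remaining large decreases were in Cldn10, a tight junction claudin, by 0.81 ± 0.13 on the log2 scale, Cuzd1 by 0.74 ± 0.11, and the little-characterized ccdc198, Gm10419, 1700007K13Rik and 2010016I18Rik, whose differences ran from -1.08 to -0.73. The second probe set of Cldn10 fell by 0.63 ± 0.16. At 24 months Cuzd1 differed by 0.40 ± 0.11 and 1700007K13Rik by -1.69 ± 0.10.

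Trdn, the gene of triadin, a calcium release protein of striated muscle, was singled out after its values were seen. It is covered by 19 probe sets, of which 9 passed the level filter and 6 were called higher. The largest difference was 3.20 ± 0.15, from 9.81, 9.76 and 9.61 on the Myc+/- arrays and 6.41, 6.54 and 6.62 on the wild type arrays. For 17 of the 19 the wild type 5-month pool was the lowest of the 4 adipose pools, and the other 3 pools lay within 0.26 of each other in the median probe set. Of 23 skeletal muscle genes on the array 9 were tested, 0 were called and the median was 0.02. In muscle the probe set with the largest difference averaged 13.62 in the Myc+/- pool and 13.56 in the wild type pool.

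**Figure D4:**
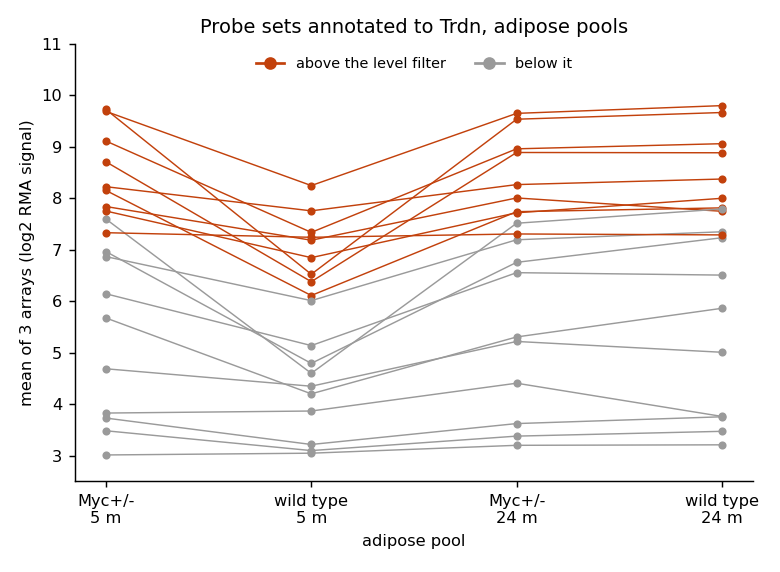
Mean log2 signal over 3 arrays (vertical axis) of the 19 probe sets annotated to Trdn in the 4 adipose pools, 1 line a probe set. Most lines dip in the wild type 5-month pool and are level across the other 3 pools.

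Set against the other pairs of pools, the 5-month adipose difference was often larger. Of the 137 genes called higher, the difference exceeded that in 24-month adipose tissue for 89, that in 5-month liver for 109, that in 5-month muscle for 111, and all 3 for 65, by interaction terms with the same thresholds. Of the 29 called lower, the counts in that direction were 9, 25, 17 and 5. These genes were called on the 5-month adipose difference, which enters each interaction, so the counts describe the genes and are no separate evidence. Over all genes, the interaction with age was called higher for 2.01% and lower for 0.799%, with liver for 1.56% and 0.664%, and with muscle for 1.47% and 0.277%. Of the 137 genes called higher, 102 had the wild type 5-month pool as the lowest of the 4 adipose pools and 69 had the Myc+/- 5-month pool as the highest, where over all genes these shares were 25.9% and 28.9%. Without the 8 genes that passed the level filter only through the Myc+/- pool, the first count was 96 of 129. The 137 were picked for a Myc+/- pool above the wild type pool, which favours both positions. The shares over all genes include genes reading lower, so these counts of positions too are no separate evidence. The same holds for the positions counted within single lists and for Trdn.

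**Figure D5:**
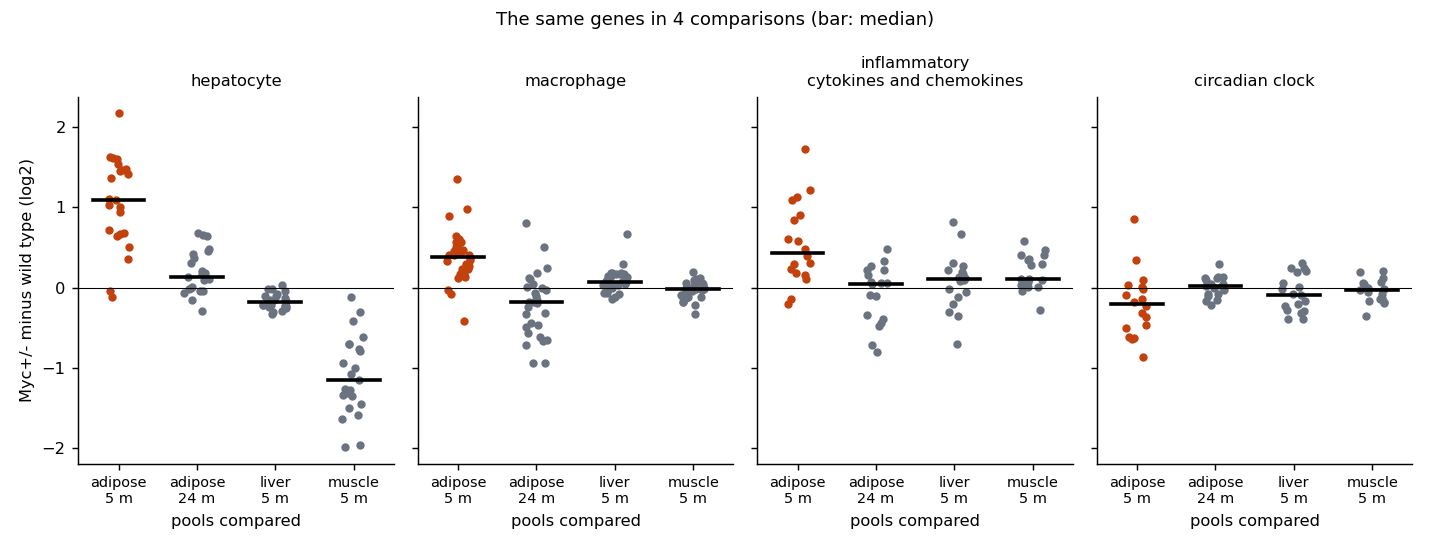
Difference between the Myc+/- and wild type pools (log2, vertical axis) for the members of 4 gene lists in 5-month adipose, 24-month adipose, 5-month liver and 5-month muscle, 1 point a gene, with the median as a bar. The hepatocyte medians are 1.09, 0.14, -0.17 and -1.15 in that order, and the macrophage medians 0.38, -0.18, 0.07 and -0.02.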

How the data were processed

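RNA of adipose, liver and muscle pools was measured on Affymetrix Mouse Gene 1.0 ST arrays. The deposited values are log2 expression values per probe set, for which the submitters' processing notes name Affymetrix Expression Console and RMA, with settings and build not given in the sources used here. RMA background correction and quantile normalization compress low signals, and differences near background are understated. Of 35556 probe sets, 21789 had 1 gene symbol in the platform annotation, 1621 had several and 12146 were not listed. Those with 1 symbol and a mean over the 12 adipose arrays above the 40th percentile (6.992) were tested, 13073 in all, and a gene was represented by its probe set with the highest mean. limma 3.58.1 in R 4.3.3 was fitted to 36 arrays with 1 coefficient for each of 12 pools (24 residual degrees of freedom, intensity trend), with Benjamini-Hochberg adjustment over all probe sets within a comparison. The number of arrays limits the precision. The 3 arrays of a pool are technical. Named are Myc, Pvt1, the 15 largest called changes each way without array overlap, and up to 4 members of a list by size plus those called, and other genes were chosen after their values were seen. The genes and lists were chosen with earlier results of these data known. The fit was tested on simulated data.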

Additional observations from a re-analysis of the deposited data

Results flagged for a closer look

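Differences between pools in 5-month adipose tissue that departed from those in another pair of pools by at least 2 log2 units, by interaction terms of the limma model, were found for these genes among the 30 with the largest changes and Myc and Pvt1. Hamp passed the level filter only through the 5-month Myc+/- adipose pool, so its departures are descriptions. Against 24-month adipose tissue, the departure was 2.59 for Hamp and 2.56 for Mmp12. Against 5-month liver it was 2.73 for Hamp, 2.43 for Ccl8, 2.27 for Igkv10-96 and 2.21 for Serpina1c. Against 5-month muscle it was largest for plasma protein genes, with 4.42 for Hamp, 4.16 for Serpina1c, 3.67 for Fabp1, 3.42 for Apoa2, 3.20 for Mup3, 3.18 for Alb, 3.07 for Ahsg, 2.96 for Hpx, 2.82 for Pzp and 2.75 for Ttr. Igkv10-96 departed from muscle by 2.03 and Fam183b by -2.13. All 3 pairs of pools were set against the same 5-month adipose pools, so these departures share that side.

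Probe sets that the platform annotation does not list were outside the comparison. Of 4358 above the level filter, 60 met the same thresholds in 5-month adipose tissue, 42 of them higher and 18 lower in the Myc+/- pool, with differences from -1.89 to 3.02. They stay unnamed here.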

How the results depend on the processing

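Array numbers did not pair the samples (deviations of same-numbered arrays correlated at 0.341, 0.12 and 0.0355, and only array 1 had its own number as best partner). The replicate block left 146 probe sets called higher and 33 lower and Myc at -0.32 (adjusted p = 0.0203).

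The 146 and 33 calls became 226 and 60 with no level filter and 78 and 19 above the 60th percentile, 45 and 4 with treat against 1.5-fold, 49 and 4 at 2-fold, and 1033 and 527 with no minimum fold. The interaction with age (257 higher, 98 lower) gave 262 lower with no filter, 151 and 63 above the 60th percentile, 63 and 18 with treat, 82 and 28 at 2-fold, and 577 and 370 with no minimum fold. The interaction with liver (201 and 86) gave 134 lower with no filter, then 114 and 52, 37 and 9, 53 and 15, and 616 and 400 under the same 4 settings. The interaction with muscle (186 and 36) gave 332 and 80 with no filter, then 95 and 15, 53 and 1, 71 and 3, and 557 and 144, and 56 lower with arrays centred on the median. Fewer or more probe sets enter under the filters, and treat and the 2-fold rule ask for a larger change. Myc, at -0.32, passed neither treat nor the 2-fold rule. Leaving out 1 array of the 6 at a time gave 144 to 169 calls higher and 26 to 43 lower, 246 to 270 and 94 to 113 for the interaction with age, 187 to 216 and 69 to 108 with liver, and 176 to 203 and 35 to 44 with muscle, and Myc from -0.40 to -0.23, with 3 of these 6 fits over 0.05. With the 6 arrays alone, the 12 adipose arrays alone, no intensity trend, new quantile normalization or centring, no other count of calls over all probe sets moved by over 1.5 times. Within lists, members reading higher went to 13 for ribosomal proteins with the new quantile normalization, against 6, and with centring to 3 for oxidative phosphorylation, against 6, and 3 for the clock, against 5. The fit of 6 arrays gives no interaction, and the fit of 12 arrays and the new normalization only that with age. Without the 48 liver-high genes, added after the data were seen, 114 probe sets were called higher and 33 lower. Of the 30 genes with the largest changes and Pvt1, none changed sign in any of these fits, but 12 lost their call with treat and 12 at 2-fold, Pvt1 and most of the decreases among them, and Dsp lost it without Myc+/- array 3.

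With 1 pool a genotype, neither the spread between mice nor that between pools is known, and array error understates both. Levels near background, such as Hamp in the wild type pool, are the least certain, and a lower filter lets in more of them.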

Other observations

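The probe sets annotated to Adck1, a mitochondrial kinase, disagreed. The one resting on RefSeq transcripts differed by 0.07 between the Myc+/- and wild type pools of 5 months. The other, listed with 2 GenBank records, read 6.74, 6.68 and 6.57 on the Myc+/- arrays and 3.88, 3.94 and 3.93 on the wild type arrays, a difference of 2.74, and it averaged 9.08 in the 24-month wild type adipose pool. Kap, a kidney androgen-regulated gene, rose by 1.01 ± 0.14 at 5 months and differed by 2.70 ± 0.14 at 24 months, while 4 other kidney genes tested were not called. Angptl8, a regulator of lipoprotein lipase, rose by 0.74 ± 0.10 and the oxytocin receptor Oxtr by 0.71 ± 0.18, both chosen after their values were seen. Complement component C6 rose by 0.61 ± 0.07 and was the only gene called of 13 complement genes tested. Of these 13, 7 read higher and 6 lower, with a median of 0.05, and by adjusted p alone 5 passed as higher and 2 as lower. C6 lost its call with quantile normalization within adipose tissue, with either centring, with treat, at 2-fold and without wild type array 1.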
